A study of Mus musculus with 12 samples.

Results

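Glycolytic enzyme genes were followed as ribosome footprints in the developing brain and spinal cord of mice that model spinal muscular atrophy (SMA), a motor neuron disease caused by too little SMN protein. They were taken by their Ensembl identifiers, fixed by enzyme and not by a measured value. Of 10 genes on the list, 9 had a row in the table of 10481 genes: Hk1, Gpi1, Aldoa, Aldoc, Tpi1, Pgk1, Pgam1, Pkm and Ldha. Gapdh was not analysed here. Ribosome profiling sequences the fragments of mRNA that ribosomes protect from nuclease, so the values reflect both how much mRNA a tissue holds and how densely ribosomes sit on it, and no matched RNA sequencing was used here to separate these. All embryos were of the Taiwanese line, carried the human SMN2tg/0 transgene and were taken at embryonic day 14.5. Controls were Smn+/-; SMN2tg/0, that is, they had lost 1 copy of the mouse gene, and SMA embryos were Smn-/-; SMN2tg/0. There were 4 groups of 3 libraries, described as biological triplicates: control brain, SMA brain, control spinal cord and SMA spinal cord. Whole tissue was ground, so that fewer cells of a type and less RNA per cell cannot be told apart.

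Glycolysis turns glucose into pyruvate in the cytosol and yields ATP and NADH on the way. Hexokinase (Hk1) traps glucose as glucose 6-phosphate, glucose 6-phosphate isomerase (Gpi1) converts it to fructose 6-phosphate, and the aldolases (Aldoa, the widespread form, and Aldoc, the form known from brain and from astrocytes in the adult) split the fructose bisphosphate made from it. Triose phosphate isomerase (Tpi1) interconverts the 3-carbon products, phosphoglycerate kinase (Pgk1) makes the first ATP, phosphoglycerate mutase (Pgam1) moves the phosphate group, pyruvate kinase (Pkm) makes the second ATP along with pyruvate, and lactate dehydrogenase A (Ldha) reduces pyruvate to lactate and so regenerates NAD+. Dividing and early embryonic cells are known for high glycolysis that ends in lactate, and neurons rely more on the oxidation of pyruvate in mitochondria.

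In RefSeq's annotation of GRCm38.p6, the mouse build also named for these counts, the 9 genes lie at separate places on 7 chromosomes. Hk1 (ENSMUSG00000037012) spans chr10:62268855-62379920, Gpi1 (ENSMUSG00000036427) chr7:34201327-34230336, Aldoa (ENSMUSG00000030695) chr7:126795234-126800994, Aldoc (ENSMUSG00000017390) chr11:78323073-78327781 and Tpi1 (ENSMUSG00000023456) chr6:124810586-124814158. Pgk1 (ENSMUSG00000062070) spans chrX:106187100-106203699, Pgam1 (ENSMUSG00000011752) chr19:41911871-41918665, Pkm (ENSMUSG00000032294) chr9:59656576-59679372 and Ldha (ENSMUSG00000063229) chr7:46842274-46855627. The promoters of 2 of them are shown because the genes differed between the tissues in opposite directions (below, Aldoc higher and Ldha lower in spinal cord). The fall of Ldha no longer passed once a trend on counts per base was taken out, as given below. Each window runs from 250 bases before to 50 bases after the first start given for the gene in the promoter table made from RefSeq, which for Aldoc is the start of the span above and for Ldha lies inside the span. Both are on the plus strand, at chr11:78322823-78323122 for Aldoc and chr7:46845554-46845853 for Ldha. Capitals mark ACGTG or its reverse complement CACGT, the core of the motif known for hypoxia-inducible factors, whose targets include many glycolytic genes. The 6-base palindrome CACGTG, also known as an E-box, counts once on each strand.

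Aldoc: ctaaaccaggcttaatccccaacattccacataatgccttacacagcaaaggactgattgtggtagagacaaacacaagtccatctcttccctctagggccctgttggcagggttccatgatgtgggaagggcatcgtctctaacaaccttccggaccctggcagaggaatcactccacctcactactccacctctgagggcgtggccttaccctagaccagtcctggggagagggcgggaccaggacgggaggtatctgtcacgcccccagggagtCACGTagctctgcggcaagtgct

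Ldha: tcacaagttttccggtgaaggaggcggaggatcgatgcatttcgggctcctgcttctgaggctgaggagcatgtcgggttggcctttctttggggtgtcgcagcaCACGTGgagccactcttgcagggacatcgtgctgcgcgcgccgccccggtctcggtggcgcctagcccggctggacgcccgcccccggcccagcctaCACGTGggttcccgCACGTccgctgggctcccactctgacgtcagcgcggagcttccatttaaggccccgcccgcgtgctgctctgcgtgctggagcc

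The Ldha window shown held 5 matches and the Aldoc window shown 1, and the other listed window of each gene held 0. At least 1 window of 7 of the 9 genes held the motif, all but Gpi1 and Tpi1, against 21.8% of the 27025 genes with a listed promoter. By window, 8 of the members' 15 and 19.6% of all 32851 windows held it. Genes with several listed starts had more chances to match, and the letters alone do not show that a factor bound there.

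The libraries held 3683842 to 12793955 counts. Control spinal cord was deeper (10315064 to 12793955) than control brain (4207100 to 9117017), and SMA spinal cord (5162190 to 8027322) overlapped with SMA brain (3683842 to 5406430). Tissue identity followed the labels: 8 named Hox genes of the spinal cord summed to 389 to 688 normalized CPM (counts scaled to library size) in spinal cord and 2.19 to 5.58 in brain. Control spinal cord replicate 1 stood apart, with 470 CPM of 7 dividing cell genes against 144.7 to 211 in the other spinal cord libraries. Transcripts of liver and yolk sac (Apoa2, Apob and Apoh) reached 1069 CPM in SMA spinal cord replicate 1 and 351 in control spinal cord replicate 3, with 2.72 to 27.9 in the other spinal cord libraries. Results that rest on these libraries are given with and without them. The targeted gene was not analysed here, so that the genotype labels were not checked in the footprints.

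The 9 enzymes gave many footprints in both tissues, with mean CPM above those of 86.0% (Aldoc in SMA brain) to 99.8% (Pkm in brain) of all genes. Together they took 0.524% ± 0.0311 (SD, n = 3) of all counts in control brain and 0.534% ± 0.0152 in SMA brain, against 0.472% ± 0.0232 in the spinal cord of controls and 0.530% ± 0.0331 in that of SMA embryos. No member was lost to a filter on low values, and the smallest count of any of them in a library was 560, for Aldoc in SMA brain replicate 3. Levels of different genes were compared as normalized CPM per kilobase of the gene length in the file, which spans all exons although footprints lie in the coding part, so that a gene with long untranslated exons appears lower than its coding density.

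Per kilobase, the enzymes fell into a steep order that ran from Pkm and Aldoa at the top to Gpi1 and Hk1 at the bottom. In control brain, Pkm stood at 422 ± 56.6 CPM per kilobase (SD, n = 3), Aldoa at 343 ± 21.4 and Ldha at 269 ± 23.1. Pgk1 (131 ± 7.42), Pgam1 (125 ± 7.25) and Tpi1 (102 ± 4.70) held the middle, and Aldoc (54.0 ± 10.1), Gpi1 (44.9 ± 2.44) and Hk1 (40.4 ± 1.71) the lowest places. The hexokinase that begins the pathway was thus at the foot of the list and the pyruvate kinase near its end was at the head. Neighbours whose libraries overlapped in control brain were Pkm and Aldoa, Pgk1 and Pgam1, and Aldoc and Gpi1. In SMA brain the order was the same apart from Pgam1 (141 ± 9.46) and Pgk1 (128 ± 3.94), whose libraries again overlapped.

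The spinal cord had another order. Aldoa led in control spinal cord with 356 ± 21.8 CPM per kilobase, followed by Pkm with 264 ± 12.1 and Ldha with 195 ± 4.62. Aldoc (90.8 ± 12.2) had moved ahead of Tpi1 (78.9 ± 6.41), with overlapping libraries, and Hk1 (60.7 ± 5.39) ahead of Gpi1 (50.4 ± 3.59), without overlap. SMA spinal cord kept this order, with Aldoa at 437 ± 35.5, Pkm at 308 ± 27.7, Ldha at 219 ± 22, Aldoc at 108 ± 5.03, Hk1 at 65.4 ± 2.01 and Gpi1 at 54.0 ± 1.24. Overlapping neighbours there were Pgk1 (118 ± 4.65), Pgam1 (113 ± 12.9) and Aldoc.

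**Figure D1:**
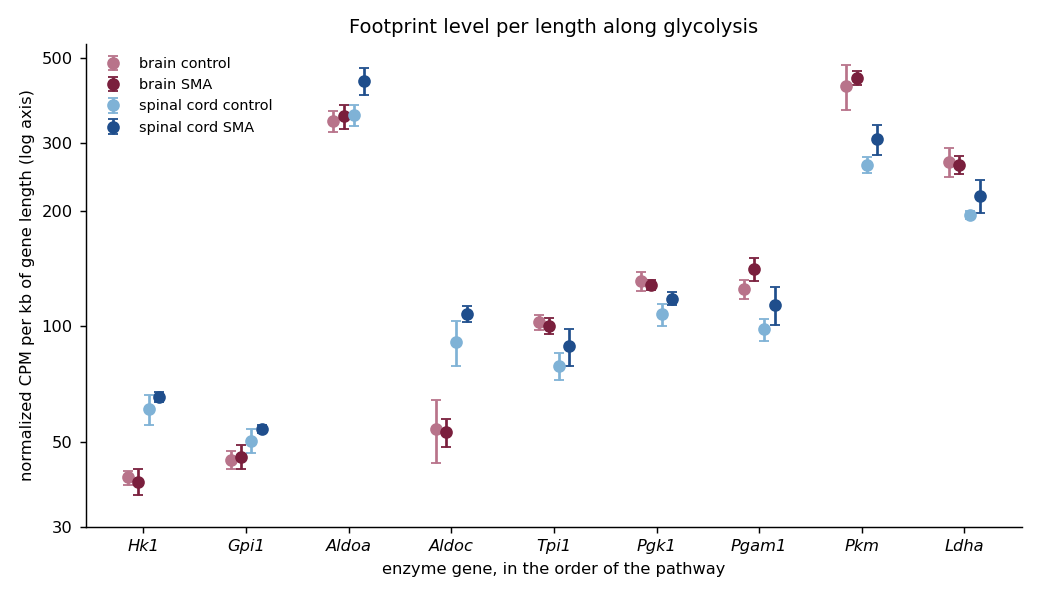
Normalized CPM per kilobase of gene length (log axis) for the 9 enzyme genes in the order of the pathway, one colour for each of the 4 groups, points for means and bars for SD over 3 libraries. Pkm and Aldoa lie highest in every group, Pkm above Aldoa in brain and below it in spinal cord, and the Hk1 and Aldoc points of spinal cord lie above those of brain.

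The first comparison set spinal cord against brain within each genotype, to ask how the pathway differs between the tissues. The enzymes did not move as a block: Hk1 and Aldoc were higher in spinal cord, and Pkm, Ldha and Pgam1 lower, in both genotypes. In controls, 7 of the 9 passed an adjusted p of 0.05 (edgeR), 2 higher and 5 lower, and across all genes 38.4% passed, 20.4% higher and 18.1% lower. In SMA embryos 7 of the 9 passed, 4 higher and 3 lower, beside 36.7% of all genes, 19.5% higher and 17.2% lower. The members' median log2 fold change was -0.28 in controls and -0.11 in SMA, and that of all genes was 0.015 and 0.027. Both comparisons used different libraries, and all 9 members had the same direction in both, as did 87.4% of all genes. A call in the same direction in both was made for 5 of the 9 members and for 28.7% of all genes. Libraries of the tissues did not overlap for 8 of the 9 in each genotype, beside 54% of all genes in controls and 51.8% in SMA.

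Hk1 gave normalized CPM of 360, 331 and 341 in control brain and 317, 326 and 365 in SMA brain. It gave 466, 555 and 533 in the spinal cord of controls and 540, 574 and 560 in that of SMA embryos, so that every spinal cord library lay above every brain library. The log2 fold change of spinal cord over brain was 0.60 (SE 0.09, adjusted p = 0.0017) in controls and 0.74 (SE 0.07, adjusted p = 0.000235) in SMA, which is 1.52-fold and 1.67-fold. Without control spinal cord replicate 1, the lowest of the spinal cord libraries, the control value was 0.67.

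Aldoc had the largest difference of the 9. Its CPM were 186, 203 and 140 in control brain and 183, 178 and 156 in SMA brain, against 251, 326 and 311 in the spinal cord of controls and 336, 368 and 352 in that of SMA embryos, again with no overlap between tissues. The log2 fold change was 0.76 (SE 0.15, adjusted p = 0.00674) in controls and 1.04 (SE 0.09, adjusted p = 0.000115) in SMA. The other aldolase gene, Aldoa, differed less, with 929, 1044 and 1027 CPM in control brain and 1085, 943 and 1051 in SMA brain, against 967, 1046 and 1093 in the spinal cord of controls and 1197, 1389 and 1228 in that of SMA embryos. Its tissues overlapped in controls (log2 fold change 0.061, SE 0.087, adjusted p = 0.603) and not in SMA, where the log2 fold change was 0.32 (SE 0.08, adjusted p = 0.0142). Gpi1 passed in SMA (0.25, SE 0.08, adjusted p = 0.041) and not in controls (0.18, SE 0.08, adjusted p = 0.128), within a range of 273 to 315 CPM over the 6 brain libraries and 308 to 357 over the 6 of spinal cord.

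Pkm, Ldha and Pgam1 gave fewer footprints in spinal cord in both genotypes, and Tpi1 and Pgk1 in controls. Pkm, whose M1 and M2 splice forms are summed in 1 row, had CPM of 1512, 1919 and 1934 in control brain and 1886, 1803 and 1956 in SMA brain. In spinal cord it had 1071, 1107 and 1172 in controls and 1185, 1420 and 1304 in SMA, all below the lowest brain library. Spinal cord over brain was -0.67 in log2 (SE 0.11, adjusted p = 0.00317) in controls and -0.52 (SE 0.07, adjusted p = 0.000866) in SMA, or 0.629-fold and 0.696-fold. Brain control replicate 1 was the lowest brain library for Pkm, and the control value without it was -0.78.

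Ldha, at the exit from pyruvate to lactate, had 803, 921 and 946 CPM in control brain and 924, 862 and 831 in SMA brain, against 657, 629 and 653 in the spinal cord of controls and 693, 809 and 674 in that of SMA embryos. The tissues did not overlap within a genotype, and the log2 fold change was -0.45 (SE 0.09, adjusted p = 0.00638) in controls and -0.26 (SE 0.08, adjusted p = 0.0409) in SMA. Pgam1 had 231, 257 and 255 CPM in control brain and 297, 260 and 280 in SMA brain, against 179, 199 and 205 in the spinal cord of controls and 215, 254 and 206 in that of SMA embryos, and likewise no overlap within a genotype (-0.34, SE 0.09, adjusted p = 0.0222 in controls and -0.30, SE 0.10, adjusted p = 0.0491 in SMA). Tpi1 (-0.37, SE 0.09, adjusted p = 0.0159) and Pgk1 (-0.28, SE 0.09, adjusted p = 0.0397) fell in control spinal cord. In SMA they stood at -0.17 and -0.11 and did not pass.

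**Figure D2:**
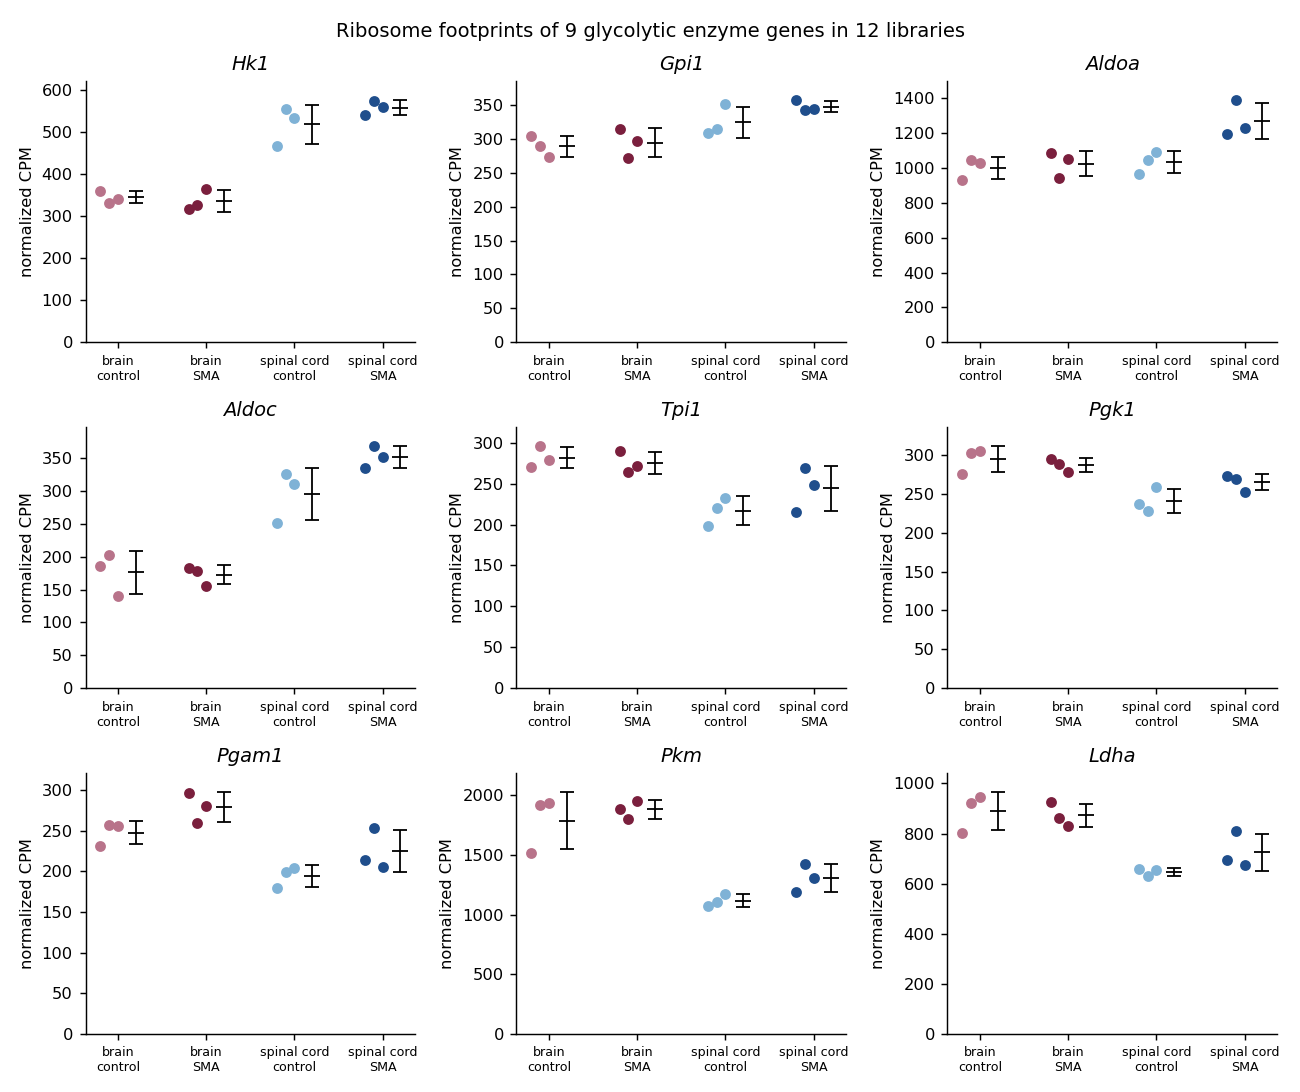
Normalized CPM of the 9 enzyme genes in the 12 libraries, 1 panel per gene with an axis from 0, 1 point per library in order of replicate number, and the mean with SD to the right of each group's 3 points. Hk1 and Aldoc libraries of spinal cord lie above all those of brain and Pkm libraries of spinal cord below them, and among the Aldoa libraries those of SMA spinal cord lie highest.

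In the SMA libraries, deviations from the group mean correlated at 0.39, 0.13 and 0.15 over genes between same-numbered brain and spinal cord samples. Samples of unlike number were not compared, so that a pairing was not shown. With the replicate number as a block, 3 members were higher and 1 lower, as Gpi1 (adjusted p = 0.0635), Pgam1 (0.0655) and Ldha (0.0624) no longer passed, and Hk1, Aldoa, Aldoc and Pkm still did. The block called 3745 of all genes in place of 3849. Without SMA spinal cord replicate 1, the library richest in liver transcripts, the same 3 genes did not pass (adjusted p = 0.0806 for Gpi1, 0.074 for Pgam1 and 0.0783 for Ldha), and 3583 of all genes were called. Without control spinal cord replicate 3, the other library rich in them, the control comparison called 2 members higher and 5 lower as before, and 3159 of all genes.

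How far a gene differed between tissues also followed how densely it was read, and these enzymes are read densely. Across 9781 genes with a mean count of at least 20, the log2 fold change of spinal cord over brain fell with the count per base (Spearman's rho -0.29 in controls and -0.23 in SMA, across genes, which are not independent replicates). The members lay above 84.2% (Gpi1) to 99.4% (Aldoa) of genes in count per base. With a smooth curve of that trend taken out, 4 members were higher in both genotypes, Hk1 (0.74 in controls and 0.84 in SMA), Gpi1 (0.31 and 0.34), Aldoa (0.48 and 0.60) and Aldoc (0.96 and 1.18), and only Pkm was lower (-0.24 in each). The falls of Ldha (-0.053 in controls and -0.0013 in SMA) and Pgam1 (-0.051 and -0.10) no longer passed, nor did those of Tpi1 and Pgk1 in controls. The calls for Hk1, Aldoc and Pkm thus stood with and without the trend in both genotypes, as did those for Gpi1 and Aldoa in SMA, while Gpi1 and Aldoa passed in controls only with the trend taken out. Sequencing depth moved along with the tissues, and its part in the trend was not tested.

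**Figure D3:**
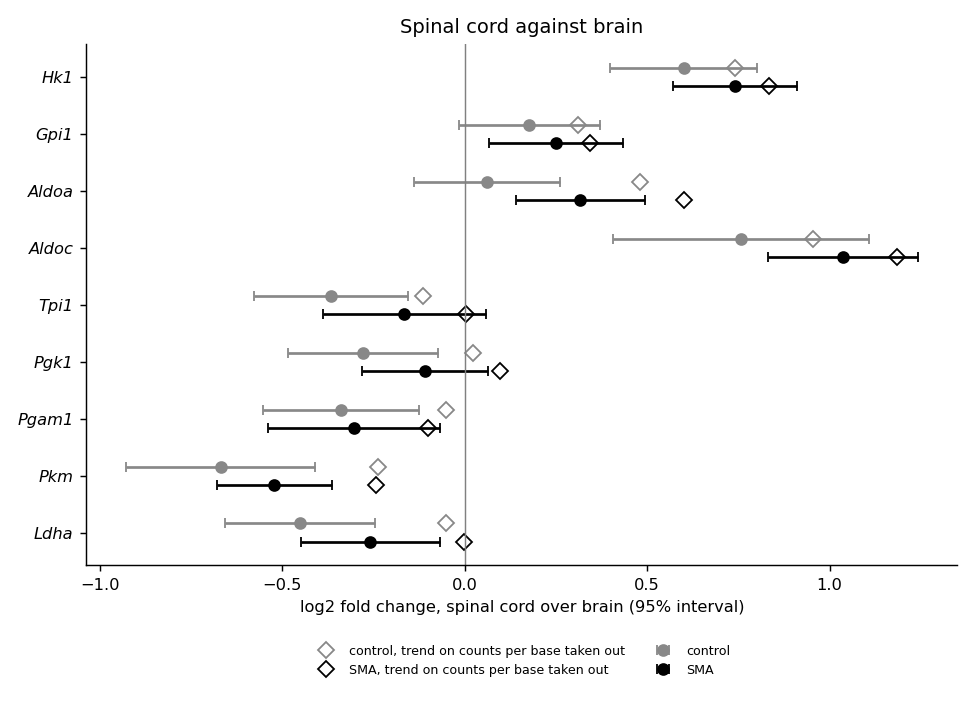
Log2 fold change of spinal cord over brain for each enzyme gene in controls (grey) and SMA (black), filled circles with 95% intervals from edgeR and open diamonds for the value after removal of the trend on counts per base. Hk1 and Aldoc lie right of 0 and Pkm left of 0 by both measures, and the diamonds of Ldha lie at -0.053 and -0.0013.

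The Aldoa to Pkm ratio compares 2 genes of nearly the same density, so that the trend nearly cancels in it. Per kilobase it was 0.893, 0.791 and 0.772 in control brain and 0.837, 0.761 and 0.782 in SMA brain, against 1.31, 1.37 and 1.36 in the spinal cord of controls and 1.47, 1.42 and 1.37 in that of SMA embryos. No spinal cord library came near the brain libraries. The difference of the log2 fold changes of Aldoa and Pkm between tissues was 0.73 in controls and 0.84 in SMA, and 0.72 and 0.85 with the trend taken out. Over all alternative settings it stayed between 0.69 and 0.79 in controls and between 0.81 and 0.88 in SMA. A like shift lay within the aldolases: Aldoc made up 13.6% ± 2.42 of Aldoa and Aldoc footprints per kilobase in control brain and 13.1% ± 1.36 in SMA brain, against 20.3% ± 1.48 in the spinal cord of controls and 19.8% ± 0.645 in that of SMA embryos (SD, n = 3). Its tissues did not overlap, with 10.8% to 15.2% in brain and 18.8% to 21.8% in spinal cord. The 2 aldolases differed by 0.70 in their log2 fold changes in controls and by 0.47 with the trend taken out, and by 0.72 and 0.58 in SMA. Hk1 over Ldha per kilobase ran from 0.140 to 0.174 in control brain and from 0.275 to 0.342 in control spinal cord, and from 0.133 to 0.170 and from 0.275 to 0.322 in SMA.

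**Figure D4:**
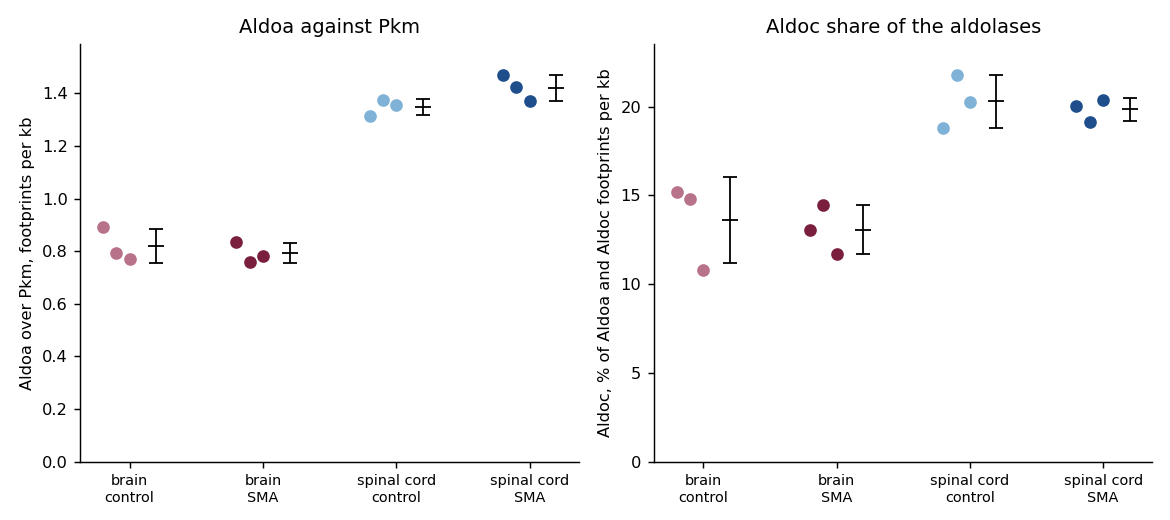
Left, Aldoa over Pkm in footprints per kilobase for each library. Right, Aldoc as a percentage of Aldoa and Aldoc footprints per kilobase, with axes from 0, points for libraries, and mean with SD over 3 libraries beside them. Spinal cord libraries lie above brain libraries in both panels, at 1.31 to 1.47 against 0.761 to 0.893 on the left.

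Dividing cell genes moved along with the tissues. Of 21 on the list, 7 had a name, and their sum was 640 to 770 CPM in brain and 144.7 to 470 in spinal cord. In control spinal cord 5 of them passed as lower (median log2 fold change -1.37), beside 18.1% of all genes. In SMA spinal cord 7 did (median -2.06), beside 17.2% of all genes. None of the 7 was at 0 in any library. Their part in the lower Pkm, Ldha and Pgam1 was not tested. Without control spinal cord replicate 1, the library richest in dividing cell genes among those of spinal cord, the control comparison called 2 members higher and 4 lower, and 3848 of all 10481 genes in place of 4029. Without brain control replicate 2, and likewise without brain control replicate 3, it called 2 members higher and 2 lower, and the calls over all genes fell to 2550 and 2596.

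The rest of the pathway could be read only in part, since 25 of the 99 genes on the lists of neighbouring steps had a name in the tables at hand. Among these 25, 9 passed as higher and 1 as lower in control spinal cord than in control brain, beside 20.4% and 18.1% of all genes. For SMA, 11 passed as higher and 2 as lower, beside 19.5% and 17.2% of all genes. Eno2, the enolase known from neurons, rose from 133 ± 13.0 CPM in control brain to 380 ± 32.7 in control spinal cord (log2 fold change 1.53, SE 0.11, adjusted p = 0.000112), and from 147 ± 8.26 to 446 ± 7.31 in SMA (1.60, SE 0.08, adjusted p = 1.49e-05). Slc2a3, a glucose transporter known from neurons, rose from 33.5 ± 2.77 to 115 ± 20.7 CPM in controls (1.79, SE 0.15, adjusted p = 0.000217) and from 39.7 ± 6.77 to 126 ± 24.3 in SMA (1.68, SE 0.18). The 4 named neuron genes did not move as one, with 2 higher and 1 lower in spinal cord in each genotype. Pfkl, a subunit of phosphofructokinase, stood at 134 ± 2.83 CPM in control brain and 122 ± 11.8 in control spinal cord and did not pass.

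For the steps beyond pyruvate, all 10 named genes of the tricarboxylic acid cycle had values above 0 in both genotypes. Values above 0 were common in the table, as the median over all genes was 0.015 in controls and 0.027 in SMA. The share of all genes above 0 is not reported here. Of the cycle's genes, Ogdh (0.60), Sucla2 (0.52), Dlst (0.39) and Idh3g (0.34) passed in controls and again in SMA. Of all 10481 genes, 1624 passed as higher in both genotypes. Of 4 named genes of the pyruvate dehydrogenase complex, which carries pyruvate into that cycle, Dlat (0.46 in controls and 0.42 in SMA) and Pdhx (0.60 and 0.79) passed in both genotypes and all 4 had values above 0. Tkt, a transketolase of the pentose phosphate pathway, was lower (-0.40, SE 0.09, adjusted p = 0.0124 in controls and -0.39, SE 0.06 in SMA). Of 4 named regulators, Myc was higher in spinal cord (1.07 in controls and 0.94 in SMA) and Arnt, the partner of hypoxia-inducible factors, passed as lower in SMA (-0.64, SE 0.14, adjusted p = 0.00884). The remaining regulators, Hif1a (0.089 in controls and 0.0065 in SMA) and Pdk1 (-0.11 and 0.056), passed in neither genotype. These lists were small after naming, and no test over a list was made. Values of the 25 named neighbours, here and below, are given with the trend on counts per base left in. Its part in them was not tested.

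The next comparison asked whether the enzymes differed between SMA and control embryos within a tissue. In brain they did not separate the genotypes. None of the 9 reached an unadjusted p of 0.05 with edgeR, which 5.05% of all genes did, nor the thresholds used for pathways (a log2 fold change of at least 0.3 with that p), which 3.76% did, and no gene of the table passed after adjustment (smallest adjusted p = 0.902). DESeq2 called no gene after adjustment either. The log2 fold changes ran from -0.021 (Hk1) to 0.19 (Pgam1), with a median of -0.013, beside 0.00141 over all genes. Pgam1 was the only member with no overlap between genotypes, higher in SMA brain, at an SE of 0.09 and an adjusted p of 0.902, where 4.08% of all genes were so placed. The 95% intervals of the other 8 reached from -0.30 to 0.32 at their widest, so that changes beyond about 1.25-fold either way fell outside them.

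In spinal cord all 9 members had values above 0, as did 48.9% of all genes, with small sizes. The log2 fold changes ran from 0.088 (Gpi1) to 0.28 (Aldoa) with a median of 0.16, beside -0.0054 over all genes. No member met the pathway thresholds, which 4.19% of all genes did, and 2 had an unadjusted p below 0.05, which 3.73% of all genes did in the higher direction. Aldoa had a log2 fold change of 0.28 (SE 0.07, unadjusted p = 0.00619, adjusted p = 0.684 with edgeR) and Pkm one of 0.21 (SE 0.07, unadjusted p = 0.0238, adjusted p = 0.684). No gene of the table passed after adjustment with edgeR, while DESeq2 passed 57 genes, with Aldoa the only member among them (0.29, SE 0.09, adjusted p = 0.038). Libraries did not overlap for Aldoa, Aldoc, Pgam1, Pkm and Ldha, 5 of 9 with all SMA libraries above all controls, where 8.1% of all genes were so placed. In Aldoa the 3 controls reached 967 to 1093 CPM and the 3 SMA libraries 1197 to 1389, the highest in replicate 2. Aldoc (0.24, SE 0.11, unadjusted p = 0.0616), Pgam1 (0.20, SE 0.11, unadjusted p = 0.103) and Ldha (0.15, SE 0.08, unadjusted p = 0.0997) did not reach the unadjusted threshold.

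Fold changes followed density in the genotype comparisons too. Across 9781 genes the SMA over control log2 fold change rose with the count per base (rho 0.38 in spinal cord and 0.26 in brain). With the trend taken out, the members of spinal cord ran from -0.069 (Ldha) to 0.097 (Aldoc) with a median of 0.014, 6 of 9 above 0, and Aldoa stood at 0.032 and Pkm at -0.031. Taking out the trend also removes any change that densely read genes share. The control spinal cord libraries were deeper than those of SMA, and the part of density or depth in the members' values was not tested. Single libraries weighed on the size: the median was 0.10 without SMA spinal cord replicate 2, which was the highest spinal cord library for 7 of the 9 genes, and 0.14 without control spinal cord replicate 1. With both libraries rich in liver transcripts left out, a choice made after seeing the data, the median was 0.27 and 2 members met the pathway thresholds, as did 1076 of all 10481 genes, against 439 with all libraries. The median was 0.23 without SMA spinal cord replicate 1 alone and 0.21 without control spinal cord replicate 3 alone. Dividing cell genes were at 184 to 470 CPM in control and 144.7 to 211 in SMA spinal cord, and none met the pathway thresholds. Slc4a1 of red blood cells met them as higher (log2 fold change 2.08, edgeR unadjusted p = 0.00798). It stood at 2.72 to 10.7 CPM in SMA and 1.04 to 1.75 in controls. Nes of neural progenitors met them as lower (-0.41, edgeR unadjusted p = 0.00662). The part of these cell types in the enzymes' values was not tested.

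**Figure D5:**
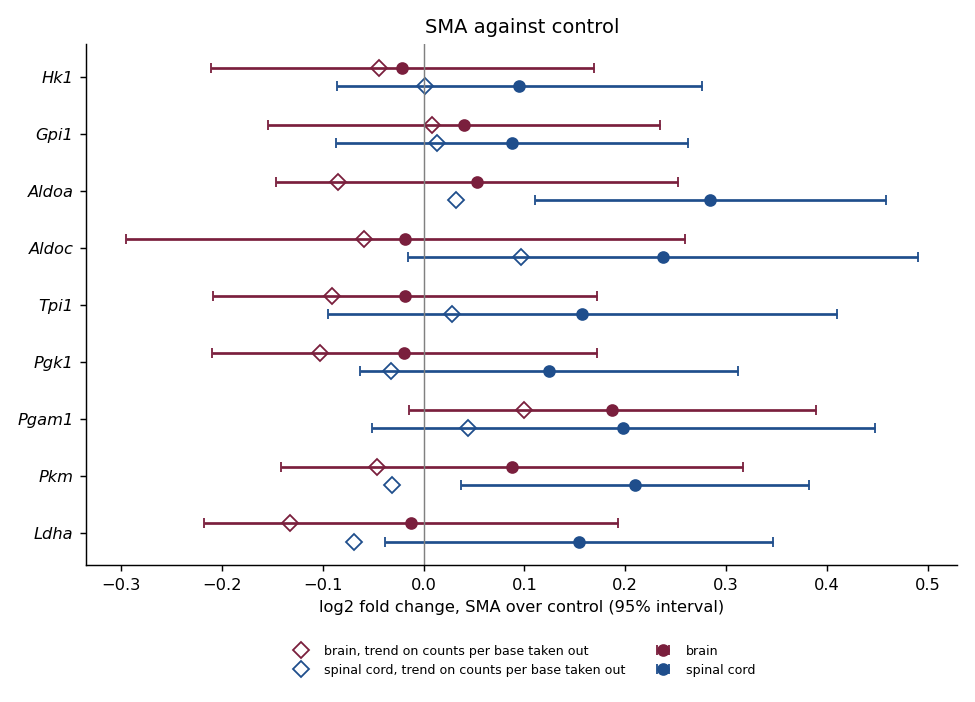
Log2 fold change of SMA over control for each enzyme gene in brain (dark red) and spinal cord (blue), filled circles with 95% intervals from edgeR and open diamonds for the value after removal of the trend on counts per base. Spinal cord circles lie between 0.088 and 0.28, and the diamonds between -0.069 and 0.097.

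The difference of the SMA effect between tissues was tested as an interaction over the 12 libraries. No gene passed after adjustment with edgeR. Aldoa, at 0.26 (SE 0.11, adjusted p = 1), was the only member below an unadjusted p of 0.05, as 2.38% of all genes were. All 9 values lay above 0, with a median of 0.17, as did 55.5% of all genes (median 0.028). With the trend taken out the median was 0.076 and 7 of the 9 stayed above 0. An effect of SMA that differs between brain and spinal cord was therefore not shown for any of the 9 genes. Of the 25 named neighbours, none met the pathway thresholds in either tissue, and Mdh2 (0.24, SE 0.06, unadjusted p = 0.00725) and Eno2 (0.22, SE 0.08, unadjusted p = 0.0258) had an unadjusted p below 0.05 in spinal cord, both higher in SMA (edgeR adjusted p = 0.684 for each). In brain the smallest p among them was that of Myc (0.25, SE 0.12, unadjusted p = 0.0593).

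Within groups some members varied together closely and others did not. Over 36 pairs of members, the correlation of deviations from the group means ran from -0.37 to 0.95 with a median of 0.29, over 12 libraries that share depth and composition. Pairs among Aldoa, Tpi1, Pgk1, Pgam1, Pkm and Ldha ran from 0.26 (Tpi1 with Pgk1) to 0.95 (Aldoa with Pgam1). Every pair below 0 held Hk1, Gpi1 or Aldoc, a division made after seeing the values. Hk1, Gpi1 and Aldoc were also the least densely read members, above 84.2% to 90.5% of genes in count per base. The rest lay above 93.2% to 99.4%. The trend on counts per base was left in these correlations, and its part in them was not tested. Of the 1997 other named genes, those whose log2 CPM over the 12 libraries were most like the members' mean were Ndufa11 (Pearson's r 0.91), a subunit of respiratory complex I, and Rplp1 (0.91), a protein of the ribosomal stalk. 6330403K07Rik (0.87), Smdt1 (0.86), a part of the mitochondrial calcium uniporter, and Rtn1 (0.86), a reticulon of the endoplasmic reticulum, followed. The trend was left in for this likeness as well.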

How the data were processed

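The submitters made footprints of 28-32 bases from cytoplasmic lysates of brain and spinal cord, trimmed them with cutadapt 4.1, removed rRNA and tRNA reads and aligned the rest to GRCm38.p6 with STAR 2.5.3a, allowing up to 5 alignments per read and dropping reads at the same position. Glycolytic genes are known for processed pseudogenes, so that shared reads leave some uncertainty in each value, and dropping repeats can hold down densely read genes. The deposited table holds raw counts per gene for the 12 libraries, with low genes already left out by the authors, and the gene length as the union of exons.

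Each comparison was fitted with edgeR 4.0.16 (R 4.3.3): TMM factors of its own libraries, estimateDisp, glmQLFit without robust estimation and glmQLFTest over all 10481 genes, with Benjamini-Hochberg adjustment. SE is the absolute log2 fold change over the root of F, and intervals use the t distribution. Printed CPM use TMM factors of all 12 libraries, and fold changes are on the fitted log2 scale. Tissue comparisons were called at an adjusted p of 0.05, and SMA comparisons by an unadjusted p of 0.05 with a log2 fold change of 0.3, beside the adjusted p. The fits were tested on simulated data with the same spread for every gene. These data held no libraries that stood apart, so they do not show how the fits act on such libraries. The trend was a loess curve (span 0.3) for each library, of its log2 CPM minus the mean over the fitted libraries, on the mean count per base. These curves entered the fit as offsets. P-values measure the spread between 3 embryo samples per group. Pairs of replicates differed by more than sampling noise in every group. Deviations of same-numbered SMA samples of brain and spinal cord correlated at 0.39, 0.13 and 0.15 over genes. A pairing is not stated in the labels and was not tested against unlike numbers, so the replicate block is given beside that comparison. Alternatives covered DESeq2 1.42.0, other scalings and filters, the newer and the robust fit, 1 fit over 12 libraries, the block, the trend and each library left out. Gene names came from the rule and from a published supplementary sheet held in part, which named 2006 genes, and loci and promoters from RefSeq by symbol, where all 9 matched. All 9 members, every named gene of the pathway lists past a threshold or among the 4 with the smallest p, and the 5 most alike genes are named, apart from items not reported here. The members and lists were chosen with earlier results of these data known.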

Additional observations from a re-analysis of the deposited data

How the results depend on the processing

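Under other processing, 431 values of single members kept their direction and their side of the threshold, 13 lost their call, 4 gained one and 11 turned. After removal of the trend on counts per base, values turned below 0 in brain for Aldoa (-0.085) and Pkm (-0.046) in SMA over control, in spinal cord for Pgk1 (-0.032), Pkm (-0.031) and Ldha (-0.069), and in the interaction for Pgam1 (-0.058) and Pkm (-0.011). Values of spinal cord over brain turned above 0 for Pgk1 in controls (0.023) and for Tpi1 (0.0036) and Pgk1 (0.095) in SMA. The members' median then was 0.014 for SMA over control in spinal cord, 0.023 for the tissues in controls and 0.095 in SMA. Upper-quartile factors gave Aldoa -0.0048 between control tissues and a median of -0.20 between SMA tissues, with 2 members higher and 3 lower, and library size alone gave 4 higher and 1 lower there. The replicate block called 4 members between SMA tissues in place of 7 and changed no other member's call. Correlations of the other same-numbered samples ran from -0.13 to 0.020 between genotypes in brain, -0.43 to 0.70 in spinal cord and 0.0080 to 0.10 between control tissues. The block moved the genes past the pathway thresholds in spinal cord from 439 to 744. With both liver-rich libraries left out, 2 members met the pathway thresholds in spinal cord (1076 genes in all) and their median was 0.27. Leaving out single libraries gave 4 to 7 members called between control tissues (2550 to 3848 of all genes), 3 to 6 between SMA tissues (2628 to 4092) and 0 to 1 past the pathway thresholds in SMA over control spinal cord, with 231 to 980 genes in all. In brain, SMA over control then ran from -0.084 to 0.014 for Hk1, -0.014 to 0.095 for Gpi1, -0.0068 to 0.11 for Aldoa, -0.15 to 0.092 for Aldoc, -0.062 to 0.020 for Tpi1, -0.076 to 0.013 for Pgk1, -0.028 to 0.15 for Pkm and -0.091 to 0.039 for Ldha, and the interaction of Pgam1 from -0.085 to 0.097. DESeq2 passed 57 genes after adjustment in SMA over control spinal cord (Aldoa among them) and edgeR 0, with 736 and 733 at an unadjusted p below 0.05. The cause of these shifts was not tested. The alternative on coding length was not run. Every member had 560 or more counts in each library.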
